A study of Mus musculus with 12 samples.

Results

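The proteins of the large ribosomal subunit other than its stalk were followed gene by gene in KPC cells exposed to cisplatin (Cis), a platinum drug that crosslinks DNA. The genes were chosen by name: every transcript whose symbol is Rpl followed by a number, with or without a final a, was taken, and Rpl12, which belongs to the stalk, was left out. This gave 42 genes of the 15803 transcripts that had a read in at least 1 library. KPC is a cell line of pancreatic ductal adenocarcinoma (PDAC) from a mouse model whose engineered alleles are switched on in the pancreas by Cre under the Pdx1 promoter, so all groups share those alleles. Cells were left untreated, with PBS, or received 20 μM Cis for 6 or 21 h, and lysates made with cycloheximide (CHX), which holds ribosomes in place, gave ribosome profiling and RNA-seq libraries. Each assay had 2 libraries per group, 12 in all. The same PBS libraries were the control at both times, and for how long those cells had been in PBS is not labelled. The labels do not say whether the 2 libraries of a group came from separate cultures, so p-values measure the spread between these libraries, which may be technical.

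The large subunit joins amino acids into protein. Its RNA forms the catalytic centre, and its proteins line the tunnel through which the new chain leaves, hold the 5S RNA, contact the small subunit and dock the factors that fold or export the chain. Cells make these proteins in near equal numbers, and mRNAs of ribosomal proteins begin with a stretch of pyrimidines, the terminal oligopyrimidine (TOP) element, through which growth signals such as mTORC1 set their translation. Outside the ribosome, Rpl5 and Rpl11 can bind Mdm2, the ligase that keeps p53 low.

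Footprints are the mRNA fragments that ribosomes protect from RNase, and their number on a coding sequence measures how much of it is being translated. The ratio of footprints to RNA is called the translational efficiency (TE). The values are RPKM, reads divided by a length and by the depth of the library, where the length is that of the coding sequence for footprints and of the transcript for RNA. Median-of-ratios factors put the libraries of each assay on 1 scale before any level was given here. Levels are relative to the other transcripts of a library, so fewer cells of a type and less RNA per cell cannot be told apart. Changes are log2 differences of scaled RPKM plus 0.5, tested two-sided with limma over all transcripts with a mean of at least 1, and a gene is called when its Benjamini-Hochberg adjusted p is below 0.05. On that scale the change of a weakly read gene is understated. With 2 libraries against 2, an exact permutation test could not give a p below 0.333.

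Footprint libraries held 3375480 to 5204127 reads and RNA-seq libraries 1985344 to 2901692, of which 51.8 to 56.6% lay on the transcripts of Lars2, Tmem38b and Mettl26. The chi-square of replicate libraries, divided by its degrees of freedom, was 1.46 to 4.12, so replicates differed by more than sampling noise. Of 8 markers of ductal cells fixed as a list, 7 had a mean footprint level of at least 1, while 0 of 5 fibroblast markers, 0 of 2 endothelial markers, 1 of 4 acinar markers (Cela1) and 1 of 3 immune markers (Cd68) did. The summed footprint levels of those other lists were at most 6.00 in any library. Among the ductal markers Muc1 did not reach that mean (0.28 to 0.71 per library). Epcam reached it at only 0.28 to 1.82, where Cela1 had 1.67 to 6.00 and Cd68 1.17 to 5.28. In RNA 6 of the 8 ductal markers had a mean of at least 1. The summed footprint level of the ductal markers was 9290 to 9729 with PBS, 9273 to 9337 at 6 h and 6586 to 6747 at 21 h. That fall lay mainly in Krt8 (4786 and 4770 with PBS, 3146 and 3207 at 21 h) and Krt19 (3061 and 2735, then 1680 and 1581). Krt7 and Cdh1 were also lower. Krt18 overlapped (1708 and 1600, then 1633 and 1825) and Sox9 was higher (12.9 and 11.4, then 30.2 and 22.4). The part of these shifts in the results below was not tested.

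The large subunit genes were among the most heavily read. Of the footprint reads outside Lars2, Tmem38b and Mettl26, 4.71% ± 0.16 lay on the 42 genes with PBS (SD, n = 2), 4.86% ± 0.04 at 6 h and 5.07% ± 0.19 at 21 h. In RNA-seq the same share was 4.39% ± 0.07 with PBS, 4.49% ± 0.04 at 6 h and 3.81% ± 0.16 at 21 h. At 21 h the RNA share therefore lay below both other groups in every library, while the footprint share lay above that of every PBS library. The median level of the 41 genes present in all libraries was 1879 for footprints and 506 for RNA with PBS, against 21.9 and 6.8 over the 9295 transcripts tested in both assays.

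The genes differed widely in level. Mean footprint levels with PBS ran from 20.9 for Rpl13a to 13244 for Rpl37, and 30 of 41 genes lay between 1000 and 4000. Rpl37 had 12605 and 13883 RPKM of footprints in the PBS libraries, Rpl41 had 10066 and 13964, and Rpl21 had 6935 and 7447. The PBS libraries of Rpl37 and Rpl41 overlapped, so their order was not separated, while both stood above Rpl21. Rpl41, a peptide at the bridge between the subunits, has the shortest coding sequence of the genes, 138 bases. Across the 41 genes Spearman's rho between footprint level and coding length was -0.45, a description with no test, since all points come from the same libraries.

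In RNA the highest genes with PBS were Rpl41 at 1805 and 1794 RPKM, Rpl23a at 1679 and 1623, and Rpl26 at 1587 and 1429. Rpl23a and Rpl26 sit at the exit of the tunnel, where Rpl23a docks the signal recognition particle. The PBS libraries of these genes did not overlap in either pair of neighbours. The lowest were Rpl9 at 30.4 and 31.2, Rpl35 at 30.6 and 45.8, and Rpl13a at 47.1 and 38.1, whose order was not separated because Rpl35 overlapped both of the others. Across the 41 genes, footprint and RNA levels with PBS went together (Spearman's rho 0.70, Pearson's r of the log2 levels 0.84).

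**Figure D1:**
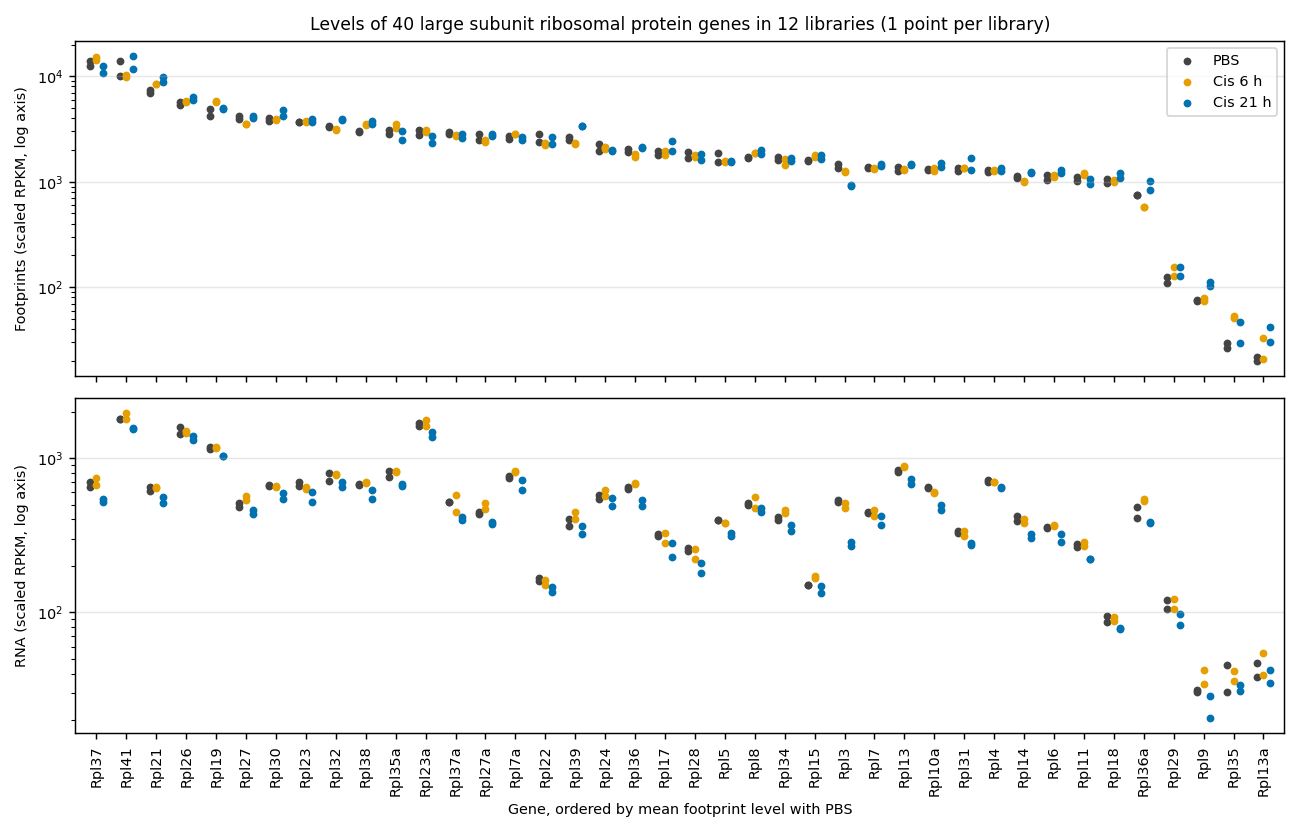
Footprint (top) and RNA (bottom) levels of 40 genes in scaled RPKM on log axes, with 1 point per library for PBS, Cis 6 h and Cis 21 h, ordered by mean footprint level with PBS. Most genes lie between 1000 and 4000 for footprints, Rpl29, Rpl9, Rpl35 and Rpl13a lie far below, and the 21 h points of Rpl3 lie below its other points in both panels.

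Rpl29, Rpl9, Rpl35 and Rpl13a stood far below the rest, and Rpl10 was almost unread. The mean footprint level of Rpl29 with PBS was 117 RPKM, of Rpl9 75.1, of Rpl35 28.0 and of Rpl13a 20.9, whereas the next gene up, Rpl36a, had 746. In reads, Rpl13a had 43 to 95 per footprint library and Rpl35 had 41 to 92. Rpl10, which closes the peptidyl transferase region late in assembly, had 0 footprint reads in the 6 footprint libraries, where 3 reads, the limit that a count of 0 allows, would be 0.898 to 1.38 RPKM. In RNA-seq it had 5 and 0 reads with PBS, 3 and 3 at 6 h, and 0 and 0 at 21 h. It was not tested in either assay. Ribosomal protein genes have many processed copies in the mouse genome with which reads can be shared, and how such reads were counted is not given in the sources used here, so the levels of these genes are uncertain and a level near 0 does not show that the protein was not made. Rows of 3 such copies, Rpl9-ps6, Rpl10-ps3 and Rpl36a-ps1, stood at mean levels of at most 4.3 RPKM in every group of either assay.

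The ratio of footprint to RNA RPKM with PBS had a median of 3.92 over the 41 genes, against 3.49 over all 9295 transcripts tested, and ran from 0.49 for Rpl13a to 19.6 for Rpl37. After Rpl37 came Rpl22 at 15.9 and Rpl21 at 11.4. After Rpl13a came Rpl35 at 0.733 and Rpl29 at 1.04. Over the pairings of a PBS footprint library with a PBS RNA library the ratio of Rpl37 was 18 to 21.4 and that of Rpl22 was 14.1 to 17.7, so these did not overlap. The ratio divides RNA reads by the length of the annotated transcript, which is 2051 bases for Rpl22 and 1856 for Rpl21 but 560 for Rpl23a. Spearman's rho between the ratio and transcript length over coding length was 0.78. When each assay was instead expressed as a share of reads, with neither length, that rho was 0.14, Rpl22 stood at 2.93, the 6th highest, and Rpl21 at 2.91, the 7th highest, against a median of 2.13. Rpl37 remained the highest by that measure at 6.74, followed by Rpl27 at 4.47, and Rpl35 and Rpl13a the lowest at 0.281 each. These shares were of all reads of a library. With PBS, Lars2, Tmem38b and Mettl26 held 54.5 and 53.8% of RNA reads but at most 0.0052% of footprint reads. That raises the share ratio of every gene, so the values cannot be set against the shares given above, which leave those transcripts out. Levels of TE were therefore not compared further between genes, and the changes below compare each gene with itself.

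**Figure D2:**
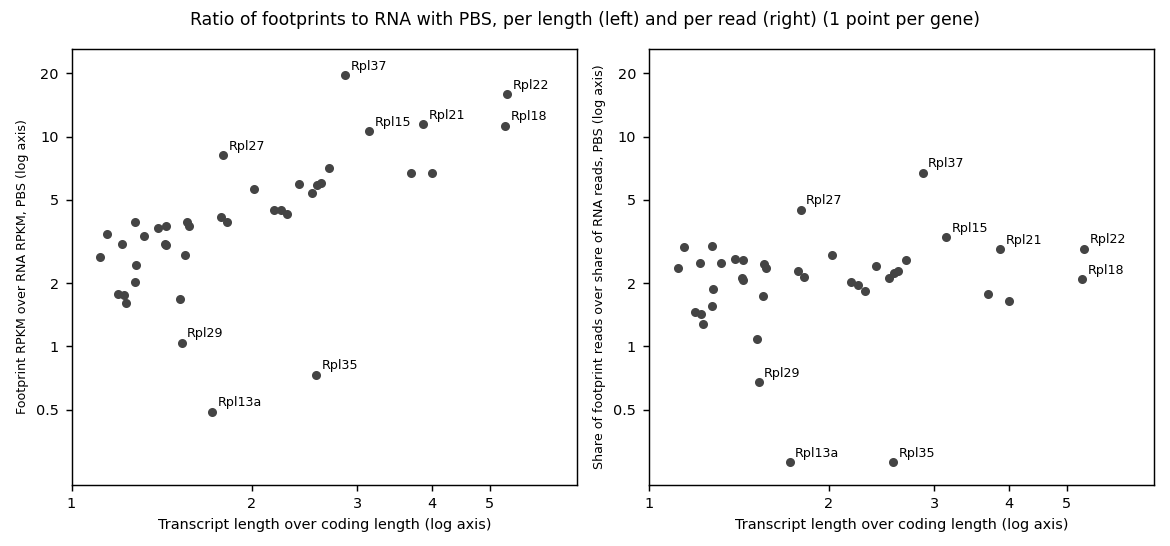
Ratio of footprints to RNA with PBS for 40 genes (1 point per gene, mean of 2 libraries per assay) against transcript length over coding length, all axes log. With RPKM (left) the ratio climbs with the length ratio, and as shares of all reads of a library (right) it does not. Rpl37 stays the highest at 6.74 while Rpl35 and Rpl13a stay the lowest.

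The first bases of the mRNA matter for this family, since the TOP element lies there. RefSeq gave a window around an annotated start for 31 of the 42 genes, on GRCm38.p6, which is not the build named in the submitters' processing notes (GRCm39). The strand of the gene was searched for an unbroken run of C and T of at least 8 letters that overlaps the 10 bases on either side of the start. Of the 31 genes, 16 (51.6%) had such a run at an annotated start, compared with 15.8% of 27025 genes in the same table and 11 of 23 genes of the small subunit. Whether the runs bear on the calls was not tested. The windows of the genes that have one and were called at 21 h for footprints or TE are shown 5′ to 3′. Each has 15 bases before the start and 15 from it on, and capitals mark the runs, which can go on past the window.
Rpl14 (chr9:120571502-120571531, plus strand): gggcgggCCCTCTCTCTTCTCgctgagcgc
Rpl13a (chr7:45128731-45128760, minus strand): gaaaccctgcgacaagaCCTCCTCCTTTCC
Rpl39 (chrX:37085208-37085237, minus strand): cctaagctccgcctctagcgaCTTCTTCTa
Rpl38 (chr11:114668565-114668594, plus strand): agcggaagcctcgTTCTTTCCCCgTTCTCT
Rpl10a (chr17:28328456-28328485, plus strand): gtggcgcccccccagcggccgcaaactgca
Rpl9 (chr5:65391417-65391446, minus strand): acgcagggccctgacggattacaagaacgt
Rpl36a (chrX:134585639-134585668, plus strand): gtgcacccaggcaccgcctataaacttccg
In Rpl14 and Rpl38 the run spans the annotated start and in Rpl13a and Rpl39 it begins just after it, while Rpl10a, Rpl9 and Rpl36a have no such run in this window. An annotated start can lie some bases from the one used in these cells, so the absence of a run says only that these letters are not there.

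At 6 h none of the 41 genes was called in any measure by limma. For footprints, 0 of 41 passed in either direction (limma), where 1.05% of all 10383 transcripts were called higher and 0.992% lower. Of the 41, 7 (17.1%) had an unadjusted p under 0.05, against 21.4% of all transcripts. Voom on the recovered reads called 3 higher and 2 lower, and 454 higher and 822 lower over all transcripts. The median change was 0.00 on the log2 scale, and 20 genes lay above 0 and 21 below. For RNA, 0 of 41 passed (limma) and 0% of 9443 transcripts did, with a median of 0.03. At an unadjusted p under 0.05 were 2 genes (4.88%), against 11.5% of all transcripts. Voom called 0 genes, and 57 higher and 172 lower over all transcripts. For TE, 0 of 41 passed (limma) and 0% of 9295 transcripts did, with a median of 0.01. Here 9 genes (21.95%) had an unadjusted p under 0.05, against 7.64% of all transcripts. Only for TE was this share at 6 h above that of all transcripts. Voom called 0 genes higher and 1 lower, and 4 higher and 10 lower over all transcripts.

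The largest shifts at 6 h went both ways. Footprints of Rpl35, a tunnel exit protein, were 26.4 and 29.6 RPKM with PBS and 52.9 and 51.2 at 6 h, without overlap, a change of 0.88 (SE 0.19, adjusted p = 0.0552 from limma) that rests on 50 and 51 reads with PBS. Rpl19, whose long helix reaches across to the small subunit, went from 4215 and 4868 to 5743 and 5791 (0.35, SE 0.08, adjusted p = 0.0726). At the other end Rpl36a, which lies at the tRNA exit site, went from 749 and 743 to 577 and 582 (-0.37, SE 0.10, adjusted p = 0.0871). Its RNA was 407 and 481 with PBS and 546 and 524 at 6 h, so that its TE change was -0.64 (SE 0.14, adjusted p = 0.209). None of these passed the threshold in limma, although voom on the recovered reads called Rpl35 and Rpl19 higher and quantile normalization called Rpl35 higher. The PBS and 6 h libraries of each gene did not overlap in footprints.

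For RNA at 21 h, 19 of 41 genes were called lower, 22 were not called and 0 were higher (limma, with 0 higher by voom as well), where 12.2% of 9443 transcripts were called lower and 11.6% higher. The fitted change was below 0 for all 41 with the scaling used here, with RPKM as deposited and with voom, but under quantile normalization 22 lay below 0, 18 above and 1 at 0, with 6 called lower and 1, Rpl19, higher. The median of the 41 changes was -0.22, against 0.02 over all transcripts, and -0.01 under quantile normalization. In 38 of the 41 genes both 21 h libraries lay below both PBS libraries, as in 30.6% of all transcripts tested. Leaving out a PBS library lowered the count called lower to 6 (replicate 1) or 5 (replicate 2), and leaving out the second 21 h library lowered it to 8. The 21 h RNA libraries also had the largest scaling factors, 1.04 and 1.09.

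Rpl3 fell furthest. It is a core protein that reaches the peptidyl transferase centre and binds early in assembly. Its RNA was 532 and 516 RPKM with PBS, 510 and 475 at 6 h and 288 and 270 at 21 h. Both 21 h libraries lay far below the rest, and the change was -0.91 (SE 0.07, 95% interval -1.07 to -0.75, adjusted p = 6.98e-05 from limma). It was called in all 16 alternatives tried, quantile normalization included, with changes between -0.96 and -0.66.

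The next largest falls in RNA were in Rpl10a and Rpl28. Rpl10a forms the mobile L1 stalk, through which spent tRNA leaves. Its RNA was 654 and 641 with PBS, 590 and 601 at 6 h and 499 and 460 at 21 h (-0.43, SE 0.06, adjusted p = 0.00177). The 3 groups did not overlap, and the difference at 6 h was not called. Rpl28 RNA was 260 and 248 with PBS and 209 and 180 at 21 h (-0.39, SE 0.10, adjusted p = 0.0203). Its call was lost in 5 of 16 alternatives, among them the removal of either PBS library or of the second 21 h library, while that of Rpl10a was lost in 1. The genes with the smallest fitted change were Rpl15 (-0.09) and Rpl24 (-0.11), neither of them called.

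Footprints at 21 h did not follow the RNA down. Of 41 genes, 8 were called higher and 1 lower, shares close to the background for rises, since 18.9% of 10383 transcripts were called higher, and below it for falls, at 20.2%. The median change was 0.14, against 0.01 over all transcripts, and 29 genes lay above 0. In 21 genes both 21 h libraries lay above both PBS libraries and in 4 below, compared with 35.4% and 35.0% of all transcripts. Without the second 21 h library 3 were called higher and 3 lower. Without the first PBS library 4 were higher and 2 lower, and without either 6 h library 4 were higher.

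The 3 largest rises in footprints were in Rpl13a, Rpl9 and Rpl39. Rpl39, a small protein that lines the tunnel, had 2641 and 2471 RPKM with PBS, 2272 and 2354 at 6 h, and 3369 and 3404 at 21 h. The 21 h libraries lay above all the others, a change of 0.41 (SE 0.07, adjusted p = 0.0027 from limma). Rpl9, at the base of the stalk region, had 76.2 and 74 with PBS, 78.2 and 73.2 at 6 h, and 103 and 113 at 21 h (0.52, SE 0.10, adjusted p = 0.00325). Rpl13a, which in some cells also leaves the ribosome to repress inflammatory mRNAs, had 21.6 and 20.1 with PBS, 33.1 and 20.8 at 6 h, and 30.1 and 42.1 at 21 h (0.76, SE 0.23, adjusted p = 0.0291). The 21 h libraries of Rpl13a overlapped with those at 6 h, and its call was lost in 5 of 16 alternatives, among them the removal of either PBS library or of the second 21 h library. The calls of Rpl39 and Rpl9 held in all 16.

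Genes called higher in footprints also included Rpl21 (0.37), Rpl36a (0.30), Rpl38 (0.27) and Rpl32 (0.21). Rpl21 footprints were 6935 and 7447 with PBS, 8438 and 8464 at 6 h, and 8729 and 9924 at 21 h, in each case above PBS. Rpl38, a protein of the outer surface that patterning of the skeleton in mice depends on, had 3045 and 2953 with PBS, 3521 and 3458 at 6 h, and 3492 and 3765 at 21 h. Of these, the call of Rpl21 was lost in 1 of 16 alternatives, that of Rpl38 in 6 and those of Rpl36a and Rpl32 in 9 each.

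Rpl3 was the single gene called lower in footprints. It had 1346 and 1465 RPKM with PBS, 1267 and 1250 at 6 h, and 923 and 903 at 21 h. The 3 groups did not overlap, and the change at 21 h was -0.62 (SE 0.07, 95% interval -0.79 to -0.45, adjusted p = 0.000414 from limma), which held in all 16 alternatives. The next lowest, Rpl23a, changed by -0.22 (SE 0.09, adjusted p = 0.098). For Rpl3 the fall in RNA was larger than that in footprints, and its TE change of 0.29 (SE 0.10, adjusted p = 0.268) was not called.

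Footprints lay above 0 and RNA below 0 at 21 h in 29 of 41 genes, and both lay below 0 in 12. Taken singly, 50.6% of all transcripts tested lay above 0 in footprints and 51.2% in RNA. The joint counts here were not made over all transcripts, so they do not show whether the pattern is particular to these genes. By calls, 2 genes, Rpl21 among them, were higher in footprints and lower in RNA, 1, Rpl3, was lower in both, 6 were higher in footprints with RNA not called, 16 were lower in RNA with footprints not called and 16 were called in neither. Across the 41 genes Spearman's rho between the footprint and RNA changes was 0.14 and Pearson's r 0.47, a description over points that share libraries. Coding length and TE change had a rho of -0.03.

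**Figure D3:**
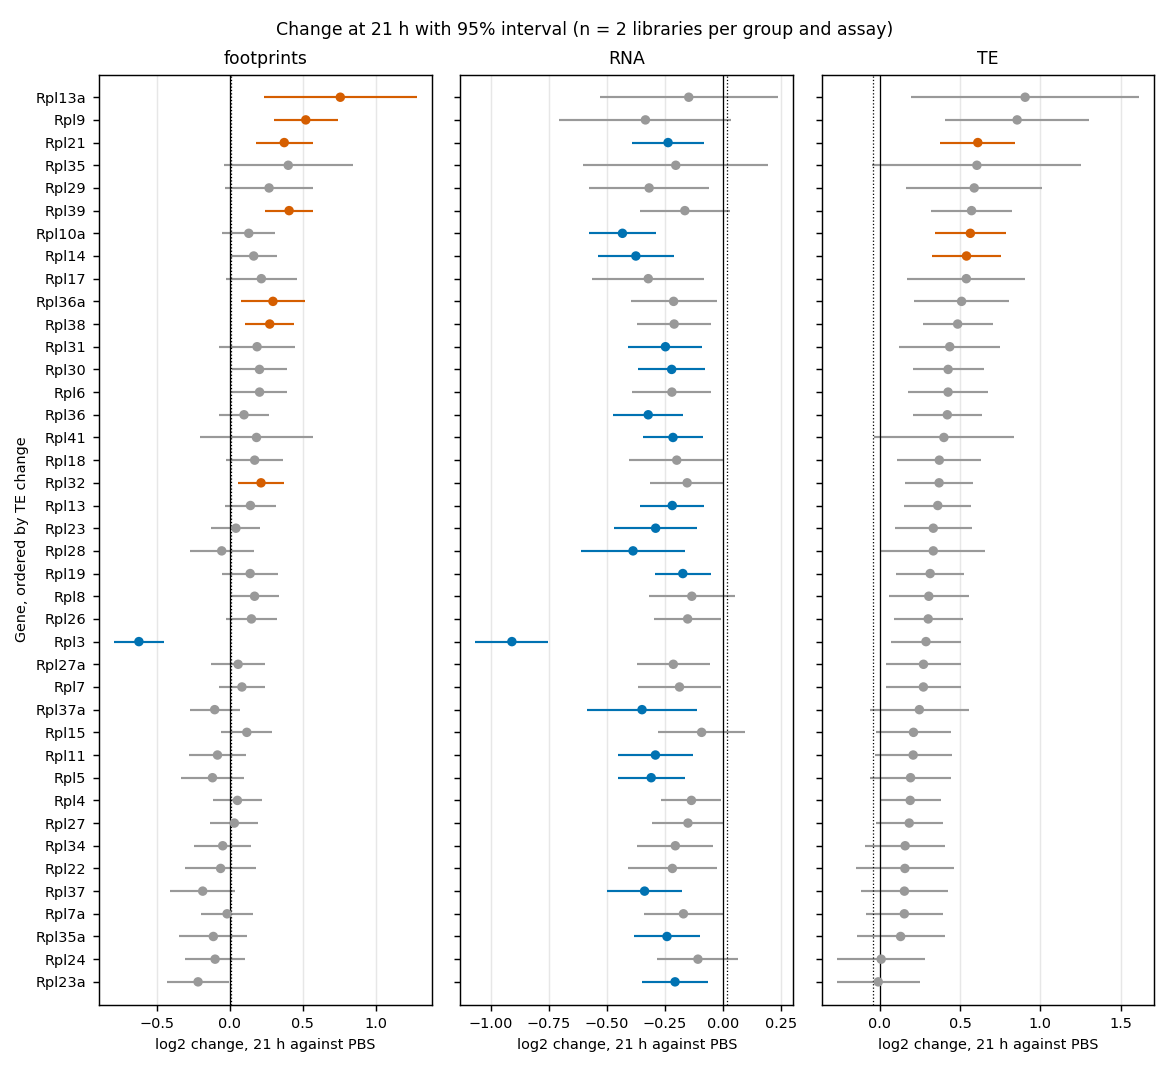
Log2 change at 21 h against PBS of 40 genes for footprints, RNA and TE, ordered by TE change. Points are limma estimates with 95% intervals (n = 2 libraries per group and assay), orange for called higher, blue for called lower and grey for not called, and the dotted line is the median of all transcripts. RNA lies below 0 for all 40 under this scaling, footprints are mostly at or above 0, and Rpl3 stands apart in both.

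For TE, the footprint change beyond the RNA change, 4 of 41 genes were called higher at 21 h, 37 were not called and 0 were lower (limma, with 0 lower at an unadjusted p under 0.05 and by voom), where 0.258% of 9295 transcripts were called higher and 0.151% lower. The fitted change was above 0 in 40 of 41, against 45.2% of all transcripts, with a median of 0.33 against -0.04. The genes share libraries and scaling factors, so they are not independent. Between replicate libraries, the log2 median level of these genes had an SD of 0.0865 for RNA and 0.0666 for footprints. Combined for TE that is 0.109. These are spreads of a level per library, not of the median change. With RPKM as deposited the fitted TE change was above 0 in 39 and with quantile normalization in 33, with medians of 0.29 and 0.19. At an unadjusted p under 0.05 there were 26 (63.4%), against 12.7% of all transcripts. Over all transcripts, voom on the recovered reads called 73 higher. The calls themselves were less stable than the direction: 13 genes were called higher with voom on the recovered reads, but 0 under quantile normalization, without the variance trend, without a filter or with a replicate block, and 0 or 1 when any of 10 of the 12 libraries was left out.

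The called genes included Rpl21, Rpl10a and Rpl14, whose calls were lost in 15, 15 and 18 of 22 alternatives. For Rpl21 the ratio was 11.4 with PBS and 17.4 at 21 h, a TE change of 0.61 (SE 0.11, adjusted p = 0.0402 from limma). Its RNA was 650 and 610 with PBS and 560 and 510 at 21 h (-0.24, called lower, lost in 7 of 16 alternatives, and 0.05 under quantile normalization).

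In Rpl10a and Rpl14 most of the TE change came from RNA. Footprints of Rpl10a were 1297 and 1324 with PBS and 1370 and 1502 at 21 h (0.13, not called), and its TE changed by 0.56 (SE 0.10, adjusted p = 0.0408). Rpl14 footprints were 1125 and 1076 with PBS and 1223 and 1243 at 21 h (0.16, not called), its RNA was 390 and 419 with PBS and 321 and 302 at 21 h (-0.38, called lower, lost in 3 of 16 alternatives), and its TE changed by 0.54 (SE 0.10, adjusted p = 0.0413). The largest fitted TE changes, 0.91 for Rpl13a and 0.86 for Rpl9, were not called (adjusted p = 0.287 and 0.107), and both genes are among the weakly read ones. At the other end Rpl23a (-0.01, 95% interval -0.27 to 0.25) and Rpl24 (0.01, -0.26 to 0.28) had changes near 0. Genes with a run of C and T at the start had a median TE change of 0.35 (n = 16) and those with a window but no run 0.27 (n = 14), and the difference was not tested.

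By place in the ribosome, both members of the 5S RNP were lower in RNA at 21 h. RNA of Rpl5 was 395 and 399 with PBS, 381 and 382 at 6 h, and 327 and 313 at 21 h (-0.31, adjusted p = 0.00833). RNA of Rpl11 was 277 and 266 with PBS, 288 and 268 at 6 h, and 222 and 221 at 21 h (-0.29, adjusted p = 0.0175). Both were lower at 21 h without overlap with PBS, among the 12.2% of all transcripts called lower. The call of Rpl5 was lost in 4 of 16 alternatives, among them quantile normalization (-0.0087) and the removal of either PBS library. That of Rpl11 was lost in 6, among them the removal of any PBS or 21 h library. Footprints of Rpl5 were 1538 and 1861 with PBS, 1548 and 1556 at 6 h, and 1589 and 1530 at 21 h, which overlapped (-0.12, 95% interval -0.34 to 0.10). Those of Rpl11 were 1010 and 1108, then 1167 and 1218, then 948 and 1052 (-0.08 at 21 h, -0.28 to 0.11). Neither TE change was called, at 0.19 for Rpl5 and 0.21 for Rpl11.

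Around the peptidyl transferase centre, Rpl3 fell, Rpl10 could not be tested and Rpl8 was not called. Footprints of Rpl8 were 1665 and 1730 with PBS and 1836 and 1985 at 21 h (0.17, adjusted p = 0.0994). Of the tunnel proteins, Rpl39 rose in footprints as described. Rpl4 had footprints of 1226 and 1281 with PBS and 1265 and 1336 at 21 h, a change whose 95% interval was -0.11 to 0.22. Rpl17 footprints were 1781 and 1977 with PBS and 1971 and 2412 at 21 h (0.22, adjusted p = 0.141). At the tunnel exit, Rpl26 footprints were 5377 and 5745 with PBS and 5935 and 6397 at 21 h (0.15, adjusted p = 0.159). Rpl23a footprints were 2769 and 3092 with PBS and 2339 and 2711 at 21 h, below PBS but not called, and its RNA was called lower (-0.21, adjusted p = 0.041), a call lost in 7 of 16 alternatives, with a change of 0 under quantile normalization. Rpl35, which had the largest fitted change at 6 h, stood at 29.5 and 46.5 RPKM at 21 h and overlapped with PBS.

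Of the bridge proteins, Rpl41 and Rpl19 were called lower in RNA at 21 h (-0.22 and -0.17), but under quantile normalization their changes were 0.03 and 0.20, the latter called higher. The call was lost in 8 of 16 alternatives for Rpl41 and in 10 for Rpl19, among them the removal of any PBS or 21 h library. Rpl24 was not called in RNA (552 and 492 RPKM against 581 and 544 with PBS). Footprints of Rpl41 were 10066 and 13964 with PBS, 10345 and 9927 at 6 h, and 15578 and 11633 at 21 h. PBS overlapped with both other groups, the 21 h libraries lay above those at 6 h, and no difference was called. On the outer face, Rpl38 rose in footprints, while Rpl22, an RNA-binding protein that cells can do without, had 2365 and 2813 with PBS and 2662 and 2293 at 21 h (-0.06, 95% interval -0.30 to 0.18). Rpl37 had 15202 and 14265 RPKM at 6 h and 10749 and 12602 at 21 h (-0.18 against PBS, adjusted p = 0.167), and its RNA was called lower (-0.34), a call lost in 3 of 16 alternatives, among them quantile normalization (-0.07).

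The changes at 21 h differed from those at 6 h in many of the genes. For RNA 23 of 41 genes were lower and 0 higher at 21 h than at 6 h (limma, with 0 higher at an unadjusted p under 0.05), where 8.21% of all transcripts were lower and 7.53% higher. For footprints 8 were higher and 3 lower, with 15% of all transcripts higher and 15.7% lower. For TE 10 were higher and 0 lower (limma, with 0 lower at an unadjusted p under 0.05), with 0.592% of all transcripts higher and 0.42% lower. Rpl36a had the largest such difference in TE: its ratio was 1.68 with PBS, 1.08 at 6 h and 2.41 at 21 h. How the counts between the times depend on the settings is not given here, while the counts against PBS moved with them.

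**Figure D4:**
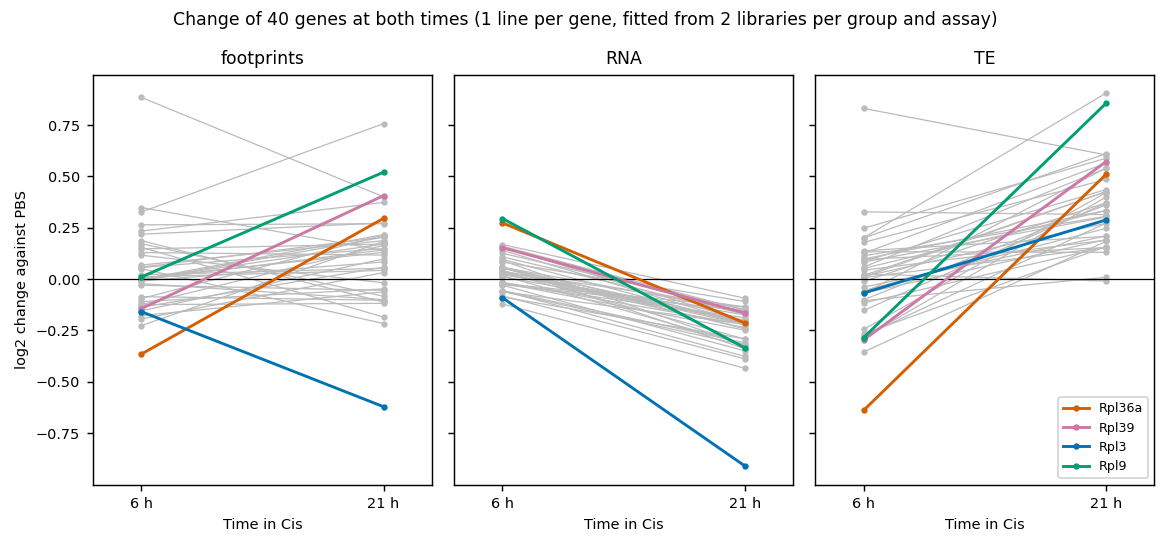
Log2 change against PBS at 6 and 21 h for footprints, RNA and TE, with 1 line per gene (40 genes, each fitted from 2 libraries per group and assay). RNA lines slope down between the times and most TE lines slope up. Rpl36a moves from the lowest TE change at 6 h to above 0, and Rpl3 falls in footprints and RNA.

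Other proteins of the ribosome are given for comparison, as counts. Over all transcripts at 21 h, 18.9% were called higher and 20.2% lower in footprints, and 11.6% and 12.2% in RNA. In TE 0.258% of all transcripts were called higher and 0.151% lower. Of 30 small subunit genes tested for RNA at 21 h, 17 were called lower and 0 higher (median -0.26). For footprints 8 of 29 were called higher and 3 lower (median 0.07), and for TE 2 of 29 were called higher (median 0.39). Of the 4 stalk genes, Rpl12 was called lower in footprints at 6 h (-0.48, SE 0.08, adjusted p = 0.0301 from limma). Rplp0, Rplp1 and Rpl12 were called lower in both footprints and TE at 21 h and 0 were called in RNA (limma, 0 at an unadjusted p under 0.05), while Rplp2 was not called in any of them. Those stalk values and the values of the other 41 genes come from the same fit, and the difference between the groups was not tested. Among the paralogues, Rpl22l1, the close relative of Rpl22, fell at 21 h in footprints from a mean of 520 to 167 RPKM (-1.64, SE 0.10, adjusted p = 1.46e-05 from limma) and in RNA from 127 to 40.97 (-1.63, SE 0.17, adjusted p = 0.000322), and Rpl7l1, a relative of Rpl7, was called higher in both (0.32 and 0.33). Of 48 assembly factors, 17 were called higher and 4 lower in footprints at 21 h, and 11 higher and 1 lower in RNA (median 0.33). Of 26 mRNAs known for a TOP element that do not encode ribosomal proteins, 10 were called lower and 1 higher in RNA (median -0.19). In TE 0 were called (median 0.16), with 12 (46.2%) at an unadjusted p under 0.05, against 12.7% of all transcripts.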

How the data were processed

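The deposited values are RPKM, 1 representative transcript a gene and 1 file a library, replicates not pooled. Footprints were divided by coding length, RNA-seq reads by transcript length. The submitters' processing notes name cutadapt, STAR and GRCm39, without roles or versions. Transcripts not listed were set to 0. RPKM times length gave whole multiples of 1 read (tolerance 0.001) for 100% of values, which gave reads and depth. Intervals come from limma and, like its p-values, measure the spread between libraries. The read floor given for Rpl10 covers counting error only.

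RPKM were scaled by median-of-ratios factors. On log2(RPKM + 0.5), limma 3.58.1 (R 4.3.3) was used (eBayes with trend, 3 groups per assay in 1 model, mean of at least 1), two-sided with Benjamini-Hochberg adjustment over all transcripts, and TE was the assay by treatment interaction in all 12 libraries. The procedure was tested on simulated data. Genes named are the 3 largest called rises and falls per comparison, genes with a textbook role, and the 3 highest and lowest with PBS; Rpl36a, Rpl14, Rpl15, Rpl27, Rpl32, the genes that differed between times and the copies and relatives were added after their values were seen. Values of 1 member entered all fits and counts but are not reported here, and the figures leave it out. Members and lists were chosen with earlier results of these data known. Alternatives were pseudocounts, filters, scalings, limma without trend, voom, a replicate block, only the groups compared, and each library left out. Other steps used pandas 2.3.3, numpy 2.4.6 and matplotlib 3.10.9 under Python 3.11.15.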

Additional observations from a re-analysis of the deposited data

Results flagged for a closer look

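The following genes had changes that differed between the times, by limma's test of 21 h against 6 h with Benjamini-Hochberg adjustment over all transcripts. The groups hold 2 libraries each, too few to look for outlying libraries. Alternative settings are given below for the comparisons with PBS only, so these calls between the times should not be taken as firmer.

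For TE, 10 genes were higher and 0 lower at 21 h than at 6 h, where 0.592% of all transcripts were higher and 0.42% lower. The differences included 1.15 for Rpl36a, 1.14 for Rpl9, 0.87 for Rpl39, 0.67 for Rpl36, 0.61 for Rpl14, 0.55 for Rpl27a, 0.54 for Rpl27, 0.52 for Rpl32 and 0.46 for Rpl13 on the log2 scale, with adjusted p from 0.0033 (Rpl36a) to 0.0449 (Rpl13). For every gene named here the fitted TE change was below 0 at 6 h and above 0 at 21 h, and none of the 6 h changes was called by limma. The genes were picked by this difference between the times, so the shared signs are not a separate result.

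For footprints, 8 genes were higher and 3 lower at 21 h than at 6 h, where 15% of all transcripts were higher and 15.7% lower, so the share of rises was near that of all transcripts. The largest rises were 0.66 for Rpl36a, 0.55 for Rpl39 and 0.51 for Rpl9, and the falls were -0.46 for Rpl3, -0.34 for Rpl37 and -0.26 for Rpl11, the last at an adjusted p of 0.0496 from limma. For RNA, 0 genes were higher and 23 lower, where 7.53% of all transcripts were higher and 8.21% lower, with the largest falls in Rpl3 (-0.82), Rpl9 (-0.63) and Rpl36a (-0.49). The second 21 h RNA library had the largest scaling factor of its assay, 1.09. Its part in the RNA differences was not tested.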

How the results depend on the processing

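Each count of called genes at 21 h moved with some setting, except that of genes lower in TE, which was 0 throughout. For RNA, 19 genes were called lower, but 9 with RPKM as deposited, 1 without the variance trend, 8 without a filter, 29 with voom, and 6 lower and 1 higher under quantile normalization, where the median moved from -0.22 to -0.0085. For footprints, 8 were called higher and 1 lower, but 2 higher without the trend, 4 without a filter, 4 with only the groups compared, 11 higher and 3 lower with voom, and 11 higher with RPKM as deposited. For TE, 4 were called higher, but 0 without the trend, 0 without a filter, 0 with only the groups compared, 0 under quantile normalization (median 0.19) and 13 with voom. At 6 h, footprint calls were 0, but 1 higher with a mean RPKM of at least 5, 1 higher under quantile normalization, 1 higher and 1 lower with only the groups compared, and 3 higher and 2 lower with voom. TE had 1 lower with voom. Over all transcripts at 21 h, voom called 1523 lower in RNA, 2262 higher and 2387 lower in footprints, and 73 higher in TE. The cause of these shifts between settings was not tested.

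Leaving out 1 library at a time gave 5 to 19 genes lower in RNA at 21 h, 3 to 10 higher and 1 to 3 lower in footprints at 21 h, 0 to 6 higher in TE at 21 h, and 0 to 1 higher and 0 to 1 lower in footprints at 6 h. Of the called genes, 1 of 19 for RNA, 3 of 9 for footprints and 0 of 4 for TE were called under every alternative, and the sign changed for 4 of the 19 in RNA.

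With the replicate number as a block, RNA at 21 h had 20 genes lower, footprints 6 higher and 1 lower, and TE 0 higher. Replicate differences of the same number correlated at -0.03 to 0.03 between groups over 9295 transcripts, so no pairing was seen. Sampling noise in weakly read transcripts can hide a shared source, so pairing by number is not excluded.

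Depth limited the weakly read genes most: Rpl35 had 41 to 92 footprint reads per library and Rpl9 had 35 to 68 RNA reads.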
